A study of Saccharomyces cerevisiae with 6 samples.

Results

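Transcript abundance in budding yeast of the third arrest group, T3, was compared with that of the second, T2. The members are the 4 libraries of these groups, replicates A and B of each, out of 6 in the series, and the 6046 genes of 6400 named entries whose mean was at least 1 TPM over the 6 libraries. TPM is a relative abundance corrected for gene length, in which the values of each library are shares of the same fixed total. The mean lay at 1.02 TPM for the lowest gene inside this limit and at 0.999 TPM for the highest outside it. Every library is poly(A)-enriched RNA of W303, a common laboratory strain of Saccharomyces cerevisiae, and every title carries the word arrest. The series' design names populations of 3 mean cell sizes. The labels give no size, time, genotype or way of arrest for any group, so T3 is described here by its name and its place as the most enlarged group could not be checked. The T1 libraries enter the fit as a further estimate of spread, and their levels are given where the T2 to T3 step was compared with the T1 to T2 step.

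Yeast cells held in a cell cycle arrest can go on growing, so that cell volume rises while the DNA content does not. When yeast grows slowly or meets stress, genes of energy stores, respiration and stress protection are known to be induced through the transcription factors Msn2 and Msn4, and genes of ribosome production are repressed. Many chaperones of the heat shock response are under a further factor, Hsf1. TPM values are shares of the RNA in a library, so a change in RNA per cell cannot be seen in them, and fewer cells with a transcript cannot be told apart from less of it in each cell.

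From T2 to T3, 957 genes rose and 368 fell, which is 15.8% and 6.09% of the 6046 tested and 21.9% together (limma on log2(TPM + 1), Benjamini-Hochberg adjusted p under 0.05). Most changes were small. The median rise was 1.395-fold and the median fall 1.32-fold, 66 genes rose at least 2-fold and 6 fell as far. In all 1325 called genes the T2 and T3 libraries did not overlap, which was also true of 62.3% of all genes. The count of rises was 494 without T2 replicate A and 465 without T3 replicate A, and that of falls 241 without T2 replicate A, 171 without T2 replicate B and 176 without T3 replicate A. The split of calls also depends on the scaling. Rescaled by the median of ratios, 788 genes rose and 683 fell, and after quantile normalization 706 rose and 730 fell. These scalings lowered the log2 change of the median gene by 0.075 and 0.096.

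**Figure D1:**
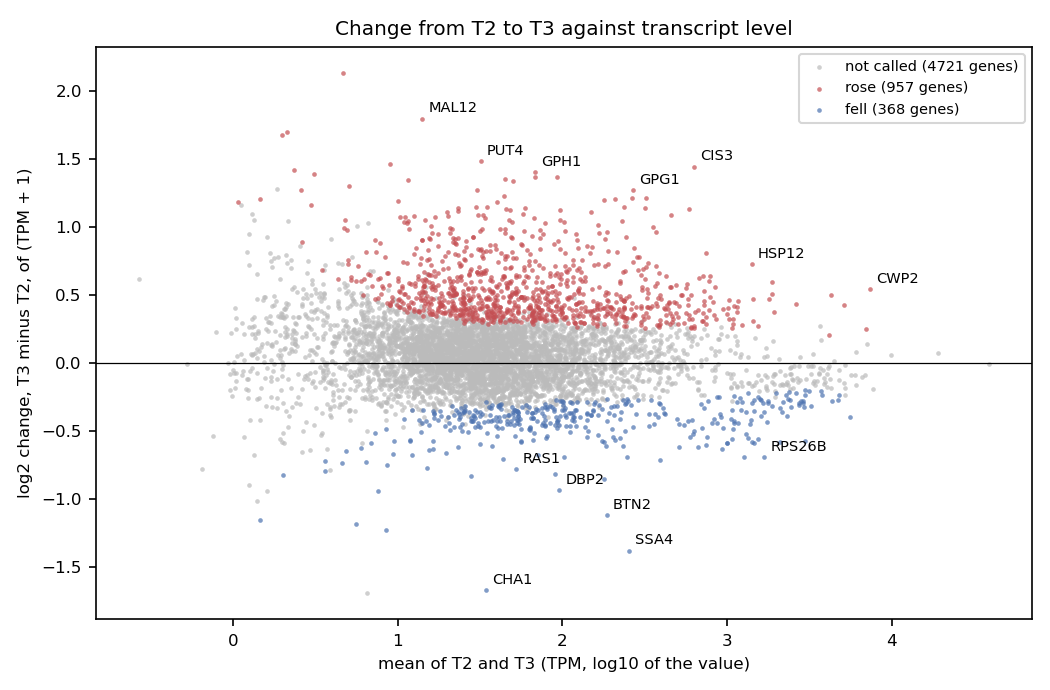
Log2 change from T2 to T3 of each of the 6046 genes against the mean of the T2 and T3 groups in TPM (log10 scale). Red points are the 957 genes that rose, blue points the 368 that fell, grey points the rest, and at the right, above 1000 TPM, blue points outnumber red ones.

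Recovered depths were 17899179 to 23570648 fragments on genes per library, and the median open reading frame held 1132 fragments or more, so counting error was small for most genes. The replicates' TPM had a Spearman correlation across genes of 0.9963 in T2 and 0.9956 in T3, and the median gene differed between replicates by 0.13 and 0.107 on the log2 scale. On the leading component of all values, which held 70.8% of the variance, T2 lay at -0.67 and 0.85, T3 at 21.91 and 19.77, and T1 at -20.85 and -21.02. Whether replicates were separate cultures is not stated by the labels, so p-values may measure technical spread. The 5 alpha mating type markers lay at 19.5 to 3200 TPM over the 6 libraries. The 7 markers of the a mating type lay at 0.77 to 11.2 TPM, so the libraries carry the pattern of alpha cells.

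The 12 largest rises among genes of at least 10 TPM in a group included genes of the cell wall, glycogen breakdown, proline uptake and late G1. CIS3, a cell wall mannoprotein gene (YJL158C, chromosome X, 122265 to 122948), lay at 323 and 352 TPM in T2 and at 967 and 874 TPM in T3. It rose 2.72-fold (log2 change 1.45, SE 0.12, limma adjusted p = 7.17e-06). GPG1, described as a gamma-like partner of the Gpa2 G protein (chromosome VII, 280777 to 281157), went from 154 and 159.6 TPM to 378 and 381 TPM and rose 2.41-fold. GPH1, whose enzyme releases glucose units from glycogen (chromosome XVI, 861306 to 864014), went from 34.6 and 39.4 TPM to 105 and 94 TPM and rose 2.65-fold. The replicates of these 3 genes lay close together, and the rule that named them took only genes whose T2 and T3 libraries did not overlap.

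PUT4, the proline permease gene (chromosome XV, 986899 to 988782), went from 14.8 and 17.8 TPM to 50.4 and 44.6 TPM, a 2.80-fold rise. ALD4, the gene of the main mitochondrial aldehyde dehydrogenase, went from 51.5 and 50.9 TPM to 153 and 117 TPM, a 2.58-fold rise with T3 replicate A above B. HAL1, linked to salt tolerance, rose 2.55-fold from 23.8 and 25.4 TPM to 67 and 61.8 TPM. Among genes at low levels, MAL12, a maltase gene, rose 3.48-fold from 5.51 and 5.88 TPM to 24.3 and 20.5 TPM, and SRX1, the sulfiredoxin gene, rose 2.75-fold from 3.98 and 4.72 TPM to 13.3 and 14.1 TPM. MAL12 has a near-identical copy in the genome and its value is therefore uncertain. SVS1 and PCL1, described with the G1 genes, and the short uncharacterized reading frame YBR201C-A (2.59-fold) were also among the 12 largest rises. The transfer RNA entry tP(UGG)L was the remaining one, at 4.78 and 6.96 TPM in T2 and 22.7 and 11.6 TPM in T3, and its call was lost in 5 of the 16 alternatives that could test it.

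**Figure D2:**
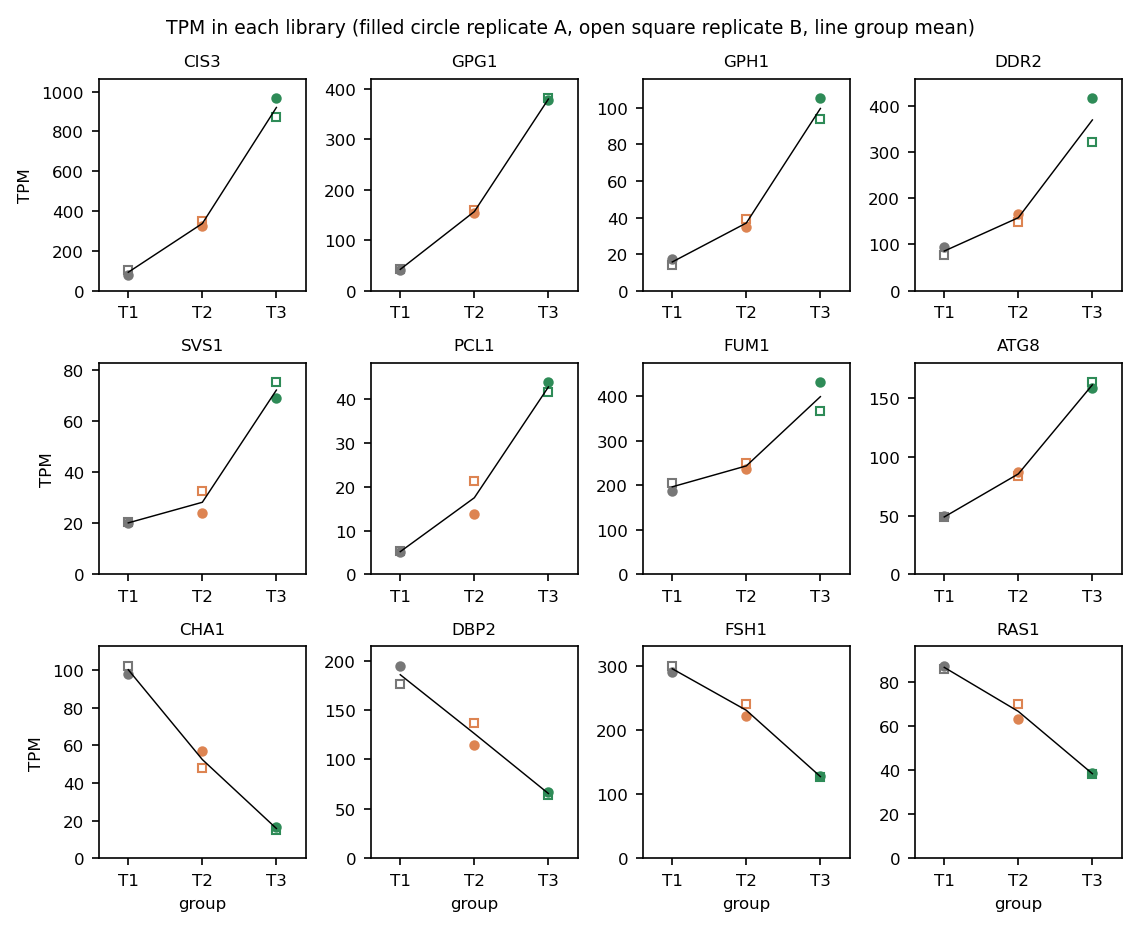
TPM (y axes, each from 0) in each of the 6 libraries by group for 12 genes, with filled circles for replicate A, open squares for replicate B and a line through the group means. CIS3, GPG1, GPH1, DDR2, SVS1, PCL1, FUM1 and ATG8 lie higher in T3 than in T2, and CHA1, DBP2, FSH1 and RAS1 lie lower.

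The largest fall among genes of at least 10 TPM in a group was that of CHA1, the catabolic serine and threonine deaminase gene (YCL064C, chromosome III, 15798 to 16880). It went from 57.1 and 47.8 TPM in T2 to 16.4 and 15.2 TPM in T3 (log2 change -1.67, SE 0.11, limma adjusted p = 2.91e-06). SSA4 and BTN2, described with the heat shock genes, and DBP2, described with ribosome assembly, were also among the 12 largest falls. FSH1, a putative serine hydrolase gene, went from 221 and 239.8 TPM to 129 and 126 TPM (log2 change -0.85). AAH1, the adenine deaminase gene, had a log2 change of -0.82, and RAS1, a gene of the small GTPases upstream of adenylate cyclase, went from 63.3 and 70.2 TPM to 38.6 and 38.2 TPM (log2 change -0.78). BSC1 (-1.22), of unknown function, and AAD6 (-0.83), a member of the aryl-alcohol dehydrogenase family with similar sequences and therefore uncertain, also fell, as did the small nucleolar RNA entry snR49 (-0.77). In poly(A)-enriched libraries the levels of small nucleolar and transfer RNA entries are uncertain, that of tP(UGG)L above included. The transfer RNA entry tV(UAC)D and the uncharacterized YDL129W completed the 12 at limma adjusted p = 0.0234 each. The first call was lost in 8 of 16 alternatives and the second in 7 of 19.

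Genes of general stress protection, most of them known targets of Msn2 and Msn4, rose in most cases. Of 63 tested, 48 rose and 2 fell, with a median log2 change of 0.567 against 0.074 over all genes tested. Without T3 replicate A 30 rose. DDR2, a stress gene of unknown function (chromosome XV, 231570 to 231755), went from 166 and 149 TPM in T2 to 416 and 322 TPM in T3, a 2.32-fold rise (SE 0.13 on the log2 scale, limma adjusted p = 4.39e-05). HSP12, a small heat shock protein gene and the most abundant of the list, went from 1169.7 and 944 TPM to 2113 and 1430.4 TPM, a 1.65-fold rise with wide spread inside T3 (limma adjusted p = 0.00785). OM45, a gene of the mitochondrial outer membrane, rose 2.16-fold, PRX1, the mitochondrial peroxiredoxin gene, rose 2.07-fold, and CTT1, a catalase gene of the cytosol, rose 1.79-fold from 19.3 and 24.4 TPM to 45.2 and 34.7 TPM. The members that fell were HSP26, a small chaperone gene that went from 68.3 and 65.5 TPM to 45 and 44.5 TPM, and YGP1, a secreted glycoprotein gene (log2 change -0.41), whose call was lost without T2 replicate B (adjusted p = 0.0619). The summed level of the 63 genes was 1.15% and 1.12% of all TPM in the T2 libraries and 1.60% and 1.5% in the T3 libraries.

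The stress response element, AGGGG on either strand and bound by Msn2 and Msn4, is shown for DDR2 because this gene holds 3 of them in the window from 51 to 350 bases before its start codon. The sequence is that of the S288C reference, R64, chrXV:231806-232105, minus strand, 5′ to 3′, with the elements in capitals (read here as CCCCT).
DDR2: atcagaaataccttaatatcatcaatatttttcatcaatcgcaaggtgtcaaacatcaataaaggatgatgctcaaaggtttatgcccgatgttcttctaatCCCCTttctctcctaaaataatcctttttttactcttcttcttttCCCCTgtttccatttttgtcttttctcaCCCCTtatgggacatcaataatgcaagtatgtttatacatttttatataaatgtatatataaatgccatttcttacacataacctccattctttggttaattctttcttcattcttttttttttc
Such a window held the element for 23.2% of the 5791 protein-coding genes with a window, for 41.0% of those that rose and for 15.2% of those that fell. It was present for 77.8% of the general stress list and for 75% of the trehalose and glycogen list, and in the vacuolar hydrolase list described further on for 66.7%. Most members of the general stress list are known targets of Msn2 and Msn4, so a high share there follows from the choice of genes. Among the 48 of them that rose it was 81.2%, close to that of the whole list. A match of these letters is a description of the window and does not show that a factor binds there.

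Trehalose and glycogen are the storage carbohydrates of yeast. Of 24 genes of their synthesis and breakdown, 19 rose and 0 fell, with a median log2 change of 0.650. GLC3, the glycogen branching enzyme gene, went from 24.5 and 27.5 TPM to 70.3 and 54.8 TPM and rose 2.34-fold. TSL1, a regulatory subunit gene of the trehalose synthase complex, rose 2.19-fold. TPS1, the catalytic trehalose-6-phosphate synthase gene and the most abundant of the list, rose 1.46-fold from 239 and 289 TPM to 421 and 349 TPM, a call lost without T2 replicate A (adjusted p = 0.0508). Genes of breakdown rose as well as genes of synthesis: GPH1 (2.65-fold), GDB1 (1.98-fold), which debranches glycogen, and NTH1 (1.79-fold), the neutral trehalase gene, were among those called.

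In the mitochondria, respiration runs on the tricarboxylic acid cycle and the electron transport chain. All 18 genes tested of the tricarboxylic acid cycle rose, by 1.23-fold (IDH2) to 2.06-fold (CIT3), with a median log2 change of 0.513. Without T3 replicate A 9 of them rose. FUM1, the fumarase gene, went from 238 and 250.0 TPM to 433 and 366 TPM (1.63-fold), SDH2, the iron-sulfur subunit gene of succinate dehydrogenase, rose 1.66-fold, and ACO1, the aconitase gene and most abundant of the list, rose 1.48-fold. Of 38 nuclear genes of the respiratory chain and ATP synthase, 29 rose and 0 fell (median log2 change 0.369), and 19 rose without T2 replicate A and 17 without T3 replicate A. ATP15, an ATP synthase subunit gene, went from 2305 and 2151 TPM to 3148 and 2879 TPM (1.35-fold). CYC7, the minor cytochrome c isoform gene, rose 1.88-fold from 129 and 123 TPM to 221 and 255 TPM. Of 20 genes of the glyoxylate cycle and gluconeogenesis, 13 rose and 0 fell (6 without T3 replicate A). The summed level of the 20 genes was 577 and 630 TPM in T2 and 834 and 770 TPM in T3. IDP2, the cytosolic isocitrate dehydrogenase gene, went from 17.7 and 18.7 TPM to 43.4 and 39.7 TPM (2.21-fold). CCAAT, the core letters bound by the Hap complex of respiratory genes, was present in 88.9% of the windows of the tricarboxylic acid cycle list and in 86.8% of those of the respiratory chain, against 43.1% of all windows (51 to 350 bases before the start codon). Among all genes that rose the share was 45.8%.

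Of 19 glycolysis genes, 6 rose and 0 fell. GPM2, a minor phosphoglycerate mutase homolog, rose 1.89-fold and GLK1, the glucokinase gene, 1.67-fold. FBA1, the aldolase gene, went from 6054 and 6684 TPM to 7840.1 and 7294 TPM (1.19-fold). The abundant TDH3, a glyceraldehyde-3-phosphate dehydrogenase gene, lay at 9251 and 10165 TPM in T2 and at 10522 and 9749 TPM in T3, groups that overlapped, and did not pass (limma adjusted p = 0.527). The 73 genes of the mitochondrial ribosome did not follow the respiratory genes, with 1 rise, 4 falls and a median log2 change of -0.117. The share that fell, 5.48%, was close to the 6.09% of all genes tested. The number of falls among them was 0 to 2 with a T2 or T3 library left out, and 20 under the median of ratios and under quantile normalization.

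**Figure D3:**
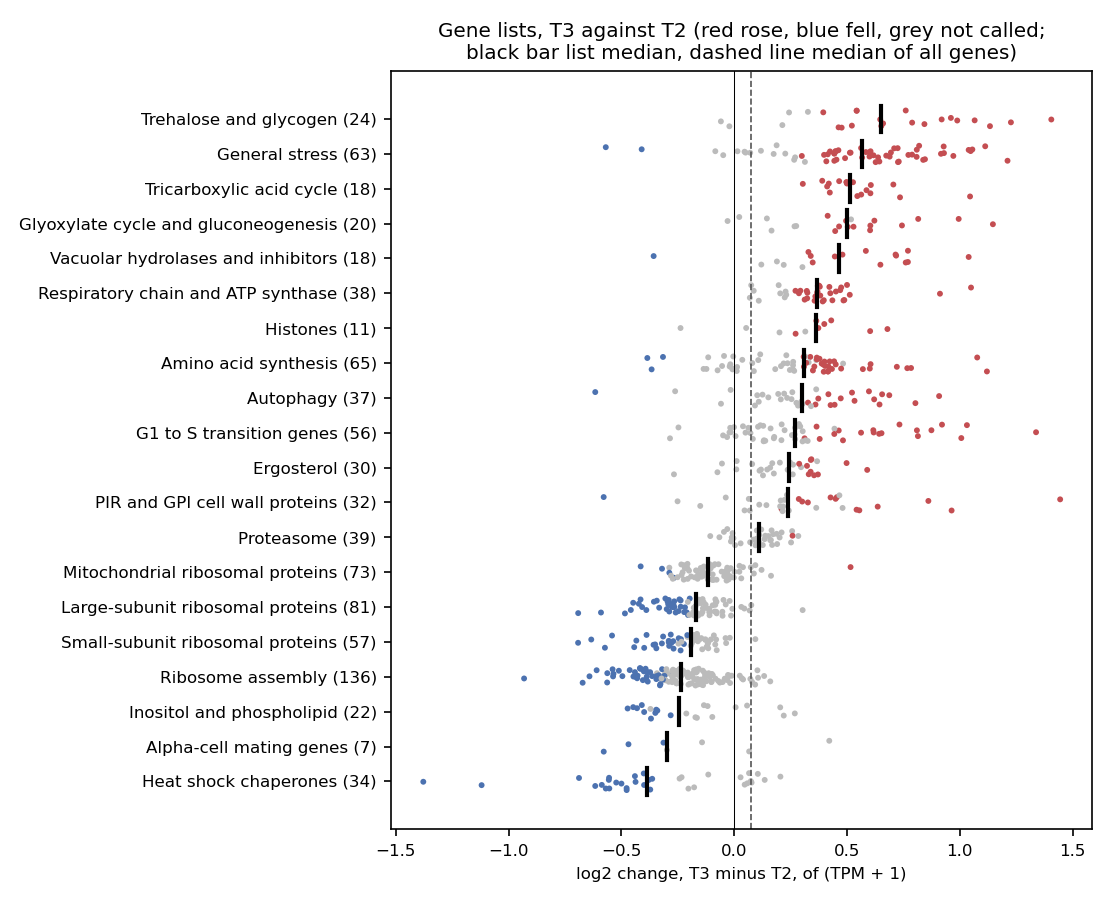
Log2 change from T2 to T3 of (TPM + 1) for each tested member of 20 gene lists, with the number tested in brackets. Red members rose, blue members fell, grey members were not called, black bars are list medians and the dashed line is the median of all genes, 0.074. The medians run from 0.650 for trehalose and glycogen to -0.389 for heat shock chaperones.

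The cytosolic ribosome takes up the largest share of the transcripts of growing yeast. Of 57 genes of the small cytosolic ribosomal subunit 25 fell and 0 rose (median log2 change -0.193), and of 81 genes of the large subunit 35 fell and 0 rose (median -0.171). RPS26B went from 2129.7 and 2009.8 TPM to 1216 and 1347 TPM (log2 change -0.69), and RPL40B from 1603 and 1542 TPM to 988 and 958 TPM (log2 change -0.69). RPL41A, the most abundant transcript of the table, lay at 42527 and 36102 TPM in T2 and at 35144 and 43177 TPM in T3, and its groups overlapped. Most ribosomal protein genes come in near-identical pairs, and single values are therefore uncertain. The 138 genes, ASC1 among them, held 41.7% and 39.3% of all TPM in T2 and 35.3% and 37.2% in T3. Without T2 replicate A 10 small-subunit and 12 large-subunit genes fell, and without T3 replicate A 15 and 18. The large-subunit count was also 17 without T2 replicate B and 21 without T3 replicate B. After quantile normalization 12 and 17 fell, and with the length trend removed 43 and 54 fell.

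Of 136 ribosome assembly genes, 39 fell and 0 rose (median log2 change -0.236). DBP2, a gene of a DEAD-box RNA helicase (YNL112W, chromosome XIV, 413639 to 416281), went from 115 and 137 TPM to 67.5 and 63.5 TPM (log2 change -0.93, SE 0.11, limma adjusted p = 8.37e-05). SRP40, a nucleolar protein gene, went from 84.7 and 90.8 TPM to 54.3 and 55 TPM, and NOP1, the fibrillarin gene and the most abundant of the list, from 629 and 692 TPM to 514 and 467 TPM. The number of falls was 15 without T2 replicate B, 19 without T3 replicate A and 22 without T3 replicate B. It was 89 under the median of ratios, 91 after quantile normalization and 106 with the length trend removed. The number of rises was 0 under each of these.

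A pair of elements known from this gene class, PAC (GCGATGAG) and RRPE (AAAAATTTT), stand next to each other before DBP2, whose window is printed because it holds both. It is R64 chrXIV:413289-413588, plus strand, with the elements in capitals. Both elements are on the opposite strand, read here as CTCATCGC and AAAATTTTT, and they do not overlap.
DBP2: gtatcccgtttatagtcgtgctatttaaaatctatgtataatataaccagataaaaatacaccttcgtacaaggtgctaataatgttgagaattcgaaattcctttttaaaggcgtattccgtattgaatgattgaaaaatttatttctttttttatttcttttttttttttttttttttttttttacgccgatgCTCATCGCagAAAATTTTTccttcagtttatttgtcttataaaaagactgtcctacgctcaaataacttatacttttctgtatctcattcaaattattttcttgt
PAC was present in 50.7% of the windows of ribosome assembly genes and in 4.2% of all windows, and RRPE in 64.7% and 8.0%. Among the 39 assembly genes that fell the shares were 48.7% and 66.7%, close to those of the whole list.

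Subunits of the RNA polymerases fell in a few cases. Of 20 genes of polymerases I and III, 6 fell and 0 rose, with RPA34, a subunit gene of polymerase I, at 186 and 201 TPM in T2 and 127 and 140.3 TPM in T3. That count was 3 without T2 replicate A, T2 replicate B or T3 replicate A. Of 12 polymerase II genes 3 fell, RPB3, RPB9 and RPO26, and 1 fell without T3 replicate A. RPO21, the gene of the largest polymerase II subunit, lay at 49.8 and 56.4 TPM in T2 and at 60.7 and 51.9 TPM in T3, and the groups overlapped. Of 39 translation factor genes 6 fell and 1 rose (1 fell without T2 replicate B and 3 without T3 replicate B). TEF4, a gene of elongation factor eEF1B, had the largest fall at a log2 change of -0.52. The shares that fell were 30% for polymerases I and III, 25% for polymerase II and 15.4% for translation factors, against 6.09% of all genes tested. These lists are short, and their shares rest on few genes.

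Heat shock chaperones fold other proteins or keep them from clumping. Of 34 tested, 20 fell and 0 rose, with a median log2 change of -0.389. SSA4, the Hsp70 gene made mainly under stress (YER103W, chromosome V, 364589 to 366517), went from 337 and 394 TPM in T2 to 148 and 132 TPM in T3 (log2 change -1.38, SE 0.12, limma adjusted p = 1.12e-05). BTN2, whose product sorts misfolded proteins (chromosome VII, 772454 to 773686), went from 243 and 268 TPM to 123 and 111 TPM (log2 change -1.12). FES1, a nucleotide exchange factor gene of Hsp70, went from 289 and 321 TPM to 195 and 183 TPM. The members that fell came from the cytosol (HSP82, SSA1, YDJ1) and the mitochondrial matrix (HSP10, HSP60, SSC1). HSP104, the disaggregase gene, lay at 434 and 495 TPM in T2 and at 436 and 372 TPM in T3, and its groups overlapped. SSA1 with SSA2 and HSP82 with HSC82 are near-identical pairs. In the endoplasmic reticulum KAR2, the Hsp70 gene there, went from 593 and 635 TPM to 399 and 401 TPM and ERO1, the oxidase gene of disulfide formation, from 118 and 133 TPM to 75.8 and 79.3 TPM. They were the 2 of 20 folding genes that fell (10%, against 6.09% of all genes tested), and 0 rose.

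The heat shock element bound by Hsf1 was searched on either strand as TTC, any 2 bases, GAA, any 2 bases and TTC. The window of BTN2 is printed because it holds 2 such matches, which overlap each other on opposite strands. It is R64 chrVII:772104-772403, plus strand, with the matches in capitals.
BTN2: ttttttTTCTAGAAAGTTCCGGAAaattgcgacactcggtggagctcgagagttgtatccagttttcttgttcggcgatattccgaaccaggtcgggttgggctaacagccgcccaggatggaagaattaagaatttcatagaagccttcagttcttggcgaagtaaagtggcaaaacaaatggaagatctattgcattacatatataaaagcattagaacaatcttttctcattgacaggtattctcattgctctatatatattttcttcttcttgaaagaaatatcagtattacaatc
The element was found in 38.2% of the 34 chaperone windows, in 50% of those of the 20 that fell, and in 1.0% of all windows. It was present for 5.7% of all genes that fell and for 0.3% of those that rose. SSA4 has no match of the heat shock element within this window. The stress response element was present in 29.4% of the chaperone windows and in 30% of those of the 20 that fell, against 23.2% of all windows.

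Genes of late G1 and the S phase make deoxynucleotides, replicate DNA and start the bud. Of 56 tested, 19 rose and 0 fell (median log2 change 0.269), and 11 rose without T2 replicate A. SVS1, a cell wall gene of vanadate resistance (YPL163C, chromosome XVI, 241918 to 242700), went from 23.9 and 32.5 TPM to 68.9 and 75.2 TPM (2.53-fold, limma adjusted p = 2.07e-05). RNR1, the large subunit gene of ribonucleotide reductase, went from 45.7 and 56.4 TPM to 108 and 102 TPM (2.04-fold). PCL1, which encodes a cyclin that joins Pho85 in G1, went from 13.7 and 21.2 TPM to 43.9 and 41.6 TPM (2.42-fold), and PCL5, another cyclin gene of that kinase, rose 1.71-fold. Of 11 histone genes 7 rose (4 without T2 replicate A), among them HTA2 from 82.8 and 78.6 TPM to 126 and 134 TPM. Core histone copies are near-identical, so their single values are uncertain. From T1 to T2 the median log2 change was already 0.327 for the G1 to S list and 0.375 for the 11 histone genes.

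SVS1 carries 2 copies of the SCB element, CACGAAA, which is bound by the Swi4-Swi6 factor of late G1, and is shown for that reason. The window is R64 chrXVI:242751-243050, minus strand, read 5′ to 3′, and the elements appear as TTTCGTG in capitals.
SVS1: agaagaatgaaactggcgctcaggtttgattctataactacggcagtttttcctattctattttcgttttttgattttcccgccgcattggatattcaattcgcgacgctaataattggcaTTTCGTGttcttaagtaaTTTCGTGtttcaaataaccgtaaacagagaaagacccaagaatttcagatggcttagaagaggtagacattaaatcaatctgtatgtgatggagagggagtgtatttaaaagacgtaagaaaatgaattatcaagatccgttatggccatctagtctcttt
SCB was present in 19.6% of the windows of the G1 to S list and in 4.8% of all windows. The MCB element, ACGCGT, was present in 57.1% and 3.8%. Among all genes that rose the shares were 4.5% for SCB and 3.9% for MCB, close to those of all windows.

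Start is the step of commitment to division, and 3 of its 18 genes tested rose while 0 fell. The share that rose, 16.7%, was close to the 15.8% of all genes tested. CLN3, the most upstream G1 cyclin gene, lay at 13.4 and 16 TPM in T2 and at 14.8 and 15.4 TPM in T3, and WHI5, the gene of the Start inhibitor, at 7.15 and 7.55 TPM and at 8.49 and 5.66 TPM. Both overlapped between the groups. CLN2 lay at 47.6 and 52.1 TPM in T2 and at 56.9 and 59.4 TPM in T3 and did not pass (limma adjusted p = 0.129). CLN1 rose 1.30-fold (limma adjusted p = 0.0209), and that call was lost in 5 of 19 alternatives, among them without T2 replicate A (adjusted p = 0.176), T3 replicate A (0.105) or T3 replicate B (0.0704). MSA2 (2.05-fold) and XBP1 (1.56-fold) were the others that rose, and the XBP1 call was lost without T3 replicate A (adjusted p = 0.0506). Of 12 mitotic cyclin and inhibitor genes 3 rose. CLB2, the main mitotic cyclin gene, went from 27.3 and 33.5 TPM to 59.8 and 59.6 TPM (1.94-fold), SIC1, the gene of the inhibitor of cyclin B kinases, from 40.8 and 41.2 TPM to 63.7 and 64.4 TPM (1.55-fold), and CLB6 rose 1.60-fold, a call lost without T2 replicate A (adjusted p = 0.0515).

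Mannoproteins form the outer layer of the yeast cell wall. Of 32 genes of PIR and GPI-anchored wall proteins, 13 rose and 1 fell, with 8 rises without T2 replicate A and 6 without T3 replicate A. CWP2, an abundant mannoprotein gene, went from 6097 and 5923 TPM to 8738 and 8766 TPM (1.46-fold), and PIR1 from 239 and 262 TPM to 506 and 472 TPM (1.95-fold). TIP1, a mannoprotein gene, was the member that fell, from 1612 and 1791 TPM to 1172 and 1103 TPM.

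Autophagy carries cell contents to the vacuole, where hydrolases break them down. Of 37 autophagy genes, 16 rose and 1 fell (8 rose without T2 replicate A and 6 without T3 replicate A). ATG8, whose product is joined to the growing autophagosome membrane, went from 87 and 83.8 TPM to 159 and 164 TPM (1.88-fold), and ATG39, whose product marks the nuclear envelope for autophagy, rose 1.74-fold. ATG5 fell from 28.3 and 28.2 TPM to 17.5 and 18.7 TPM. Among 18 vacuolar hydrolase and inhibitor genes 13 were higher and 1 was lower, among them PEP4, the proteinase A gene (1.57-fold), and PRB1, the proteinase B gene (1.64-fold). Of 39 proteasome genes 1 rose, UMP1, and its call was lost in 9 of 19 alternatives.

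Yeast makes all amino acids itself and can also take them up. Of 65 amino acid synthesis genes 30 rose and 3 fell, but 9 rose without T2 replicate A and 11 without T3 replicate A, and the number was 18 without the abundance trend and 19 after quantile normalization. BAT2, the cytosolic branched-chain aminotransferase gene, went from 206 and 221 TPM to 381 and 355 TPM (1.72-fold). ARO9 and ARO10, which act in the breakdown of aromatic amino acids, rose 2.17-fold and 2.11-fold. GCN4, the gene of the activator of amino acid synthesis, rose 1.26-fold from 648 and 669 TPM to 805 and 859 TPM. The Gcn4 element, TGACTC, was present in 63.1% of the windows of the amino acid list, in 12.2% of those of all genes that rose and in 8.2% of all windows. Of 39 genes of amino acid permeases and nitrogen regulation 12 rose and 0 fell (7 without T3 replicate A and 7 without T3 replicate B). SNZ1 and SNO1, a divergent gene pair of vitamin B6 synthesis on chromosome XIII, rose 2.13-fold and 2.02-fold.

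Phospholipid synthesis feeds membrane growth. Of 22 genes of the inositol and phospholipid list, 10 fell and 0 rose (median log2 change -0.247), and 3 fell without T2 replicate B and 2 without T3 replicate A. OPI3, a phosphatidylethanolamine methylation gene, went from 581 and 599 TPM to 419 and 445 TPM, and CHO2, the gene of the first such methylation, from 153 and 167 TPM to 118 and 129 TPM. INO2, an activator gene of this pathway, went from 35.4 and 38.2 TPM to 25.7 and 26.8 TPM. The core of the element bound by Ino2 and Ino4, CATGTGAA, is present in 2 copies before CHO2, which is printed for that reason (R64 chrVII:802090-802389, plus strand, elements in capitals).
CHO2: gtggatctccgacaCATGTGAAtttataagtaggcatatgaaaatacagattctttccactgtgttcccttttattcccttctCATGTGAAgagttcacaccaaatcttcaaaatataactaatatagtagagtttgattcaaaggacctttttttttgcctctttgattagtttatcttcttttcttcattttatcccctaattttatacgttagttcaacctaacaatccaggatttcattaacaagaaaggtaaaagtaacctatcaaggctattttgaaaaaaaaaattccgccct
The core was present in 45.5% of the windows of this list and in 1.0% of all windows. SAM2, an S-adenosylmethionine synthetase gene of the methyl donor used by these enzymes, went from 466 and 509 TPM to 299 and 294 TPM, and SAH1, which clears the product of methylation, had a log2 change of -0.60. Of 30 ergosterol genes, in contrast, 10 rose and 0 fell, with 1 rise without T2 replicate A, 3 and 4 without T3 replicates A and B, and 2 after quantile normalization.

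**Figure D4:**
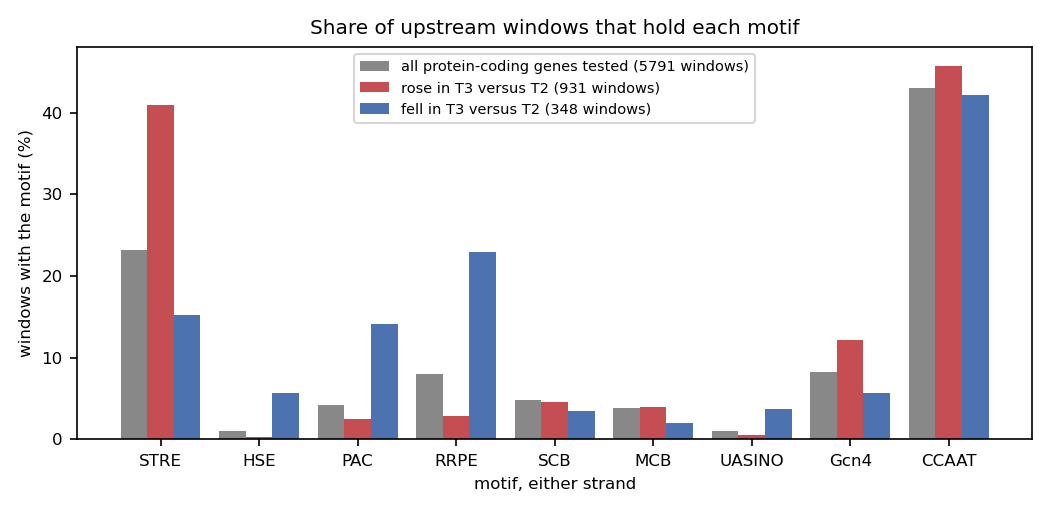
Share of windows (51 to 350 bases before the start codon) that hold each motif on either strand, in percent, for all protein-coding genes tested (grey), genes that rose (red) and genes that fell (blue). STRE was found in 41.0% of the genes that rose against 23.2% of all, and PAC and RRPE in 14.1% and 23.0% of the genes that fell against 4.2% and 8.0% of all.

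In the signalling group of Gpa2, Ras and protein kinase A, which controls storage and stress genes, 9 of 20 genes rose and 2 fell. Without T2 replicate A, and also without T3 replicate A, 4 rose. PDE1, the low-affinity cAMP phosphodiesterase gene, went from 68.7 and 67.8 TPM to 120.5 and 106 TPM (1.64-fold). RAS1 fell in the same list. Of the alpha mating genes 3 of 7 fell, led by MF(ALPHA)1, the alpha-factor gene, from 2436 and 2588 TPM to 1714 and 1649 TPM (log2 change -0.58). The call of AFB1 was lost in 5 of 19 alternatives, among them those with any T2 or T3 library left out.

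The T2 to T3 step was then compared with the T1 to T2 step in the same fit, by the difference of their log2 changes. Both steps share the T2 libraries. Several lists had already moved from T1 to T2. The median log2 change of that step was 0.348 for general stress, 0.307 for the tricarboxylic acid cycle and 0.261 for the respiratory chain. The step difference passed for 1 general stress gene and for 0 genes of the other lists named here, and also for 0 of the G1 to S and histone lists. Amino acid synthesis (0.019) and heat shock chaperones (-0.055) had moved little. The difference passed for 65 genes, 1.08% of those tested, with 46 (0.761%) above 0 and 19 (0.314%) below. The counts depend on single libraries, with 12 above and 6 below without T2 replicate A, 11 below without T2 replicate B, 70 above without T3 replicate B, 173 and 81 without T1 replicate A, and 146 and 78 without T1 replicate B. After quantile normalization 5 and 5 passed. The calls of 7 genes held in all alternatives run: SSA4, PUT4, HPF1, CSS1, BIO2, BIO3 and YJR154W.

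SSA4 lay at 218 and 277 TPM in T1 and had a log2 change of 0.57 in the T1 to T2 step before that of -1.38 in the T2 to T3 step, a difference of -1.95 (SE 0.21, limma adjusted p = 0.000378). The chaperone genes CPR6, HSP10, AHA1 and HCH1 also had steps that differed with a negative sign, as had HSP26. CPR6, an Hsp90 co-chaperone gene, lay at 840.1 and 957 TPM in T1, 1142 and 1241 TPM in T2 and 829.9 and 756 TPM in T3. In these 6 genes both T2 libraries lay above the other 4. After quantile normalization the calls of CPR6 (limma adjusted p = 0.063), HSP10 (0.104), AHA1 (0.0638) and HCH1 (0.0562) were lost. Without T2 replicate A the calls of HSP10, HSP26, AHA1 and HCH1 were lost (adjusted p = 0.354, 0.13, 0.202 and 0.316), and without T2 replicate B those of CPR6 (0.0819), HSP10 (0.0594), AHA1 (0.316) and HCH1 (0.179).

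The opposite shape was seen for PUT4, HPF1 and CSS1. PUT4 lay at 21.6 and 21.7 TPM in T1, above both T2 libraries and below both of T3 (difference 1.88, limma adjusted p = 0.000378). HPF1, a cell wall mannoprotein gene, lay at 32.4 and 37.2 TPM in T1, 15.1 and 15.6 TPM in T2 and 31.8 and 26.6 TPM in T3. GAP1, the general amino acid permease gene, was also lowest in T2, at 84.8 and 119 TPM in T1, 55.5 and 70.2 TPM in T2, and 108 and 123 TPM in T3, and its call was lost in 6 alternatives, among them without T2 replicate A (adjusted p = 0.16). ALD4 had a log2 change of 0.20 in the first step and 1.37 in the second. The call of this difference was lost without T2 replicate A and without T2 replicate B. It was also lost under the median of ratios (limma adjusted p = 0.0896), after quantile normalization (0.0926) and without the abundance trend (0.134).

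A further set of genes passed in the first step and not in the second. The daughter separation genes CTS1, DSE1, DSE2, DSE4, SCW11 and EGT2 fell from T1 to T2 (log2 changes of -3.59 for CTS1 to -2.04 for DSE4, limma adjusted p of 0.000274 or less) and did not pass from T2 to T3. CTS1, the chitinase gene, lay at 103 and 217 TPM in T1, 11 and 11.9 TPM in T2 and 12.9 and 12.8 TPM in T3. The T1 replicates of these genes lay apart. DSE4 lay at 11.4 and 28.25 TPM in T1, 3.20 and 4.08 TPM in T2 and 6.36 and 7.58 TPM in T3. Its T2 and T3 libraries did not overlap, with a T2 to T3 fold of 1.72 (limma adjusted p = 0.0614). DSE4 was called in 7 of 19 alternatives, among them the fit of the T2 and T3 libraries alone. Its missing call in the main fit, where T1 enters the estimate of spread, therefore does not show that DSE4 stayed unchanged. The step difference calls of DSE4, SCW11 and EGT2 were lost in 8, 9 and 10 alternatives, among them without T2 replicate A (adjusted p = 0.13, 0.201 and 0.2), and those of SCW11 and EGT2 also without T2 replicate B (0.065 and 0.0705). INO1, the inositol-3-phosphate synthase gene, lay at 51.6 and 70.7 TPM in T1, 12 and 10 TPM in T2 and 8.86 and 7.69 TPM in T3, with no call in the second step (limma adjusted p = 0.0861). In the biotin group BIO2, BIO3 and BIO5 rose from T1 to T2 (log2 changes of 1.35, 1.42 and 1.09) and did not pass from T2 to T3. BIO2 lay at 514 and 537 TPM in T2 and at 604 and 618 TPM in T3. BIO4 went on from 199 and 185 TPM to 464 and 434 TPM (2.33-fold), after a log2 change of 2.08 from T1 to T2. Its step difference was negative too (-0.87, limma adjusted p = 0.0261). After quantile normalization the step difference calls of BIO4 (limma adjusted p = 0.0928), BIO5 (0.0916), CTS1 (0.054), DSE1, DSE2 and INO1 (0.0562 each) were lost.

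**Figure D5:**
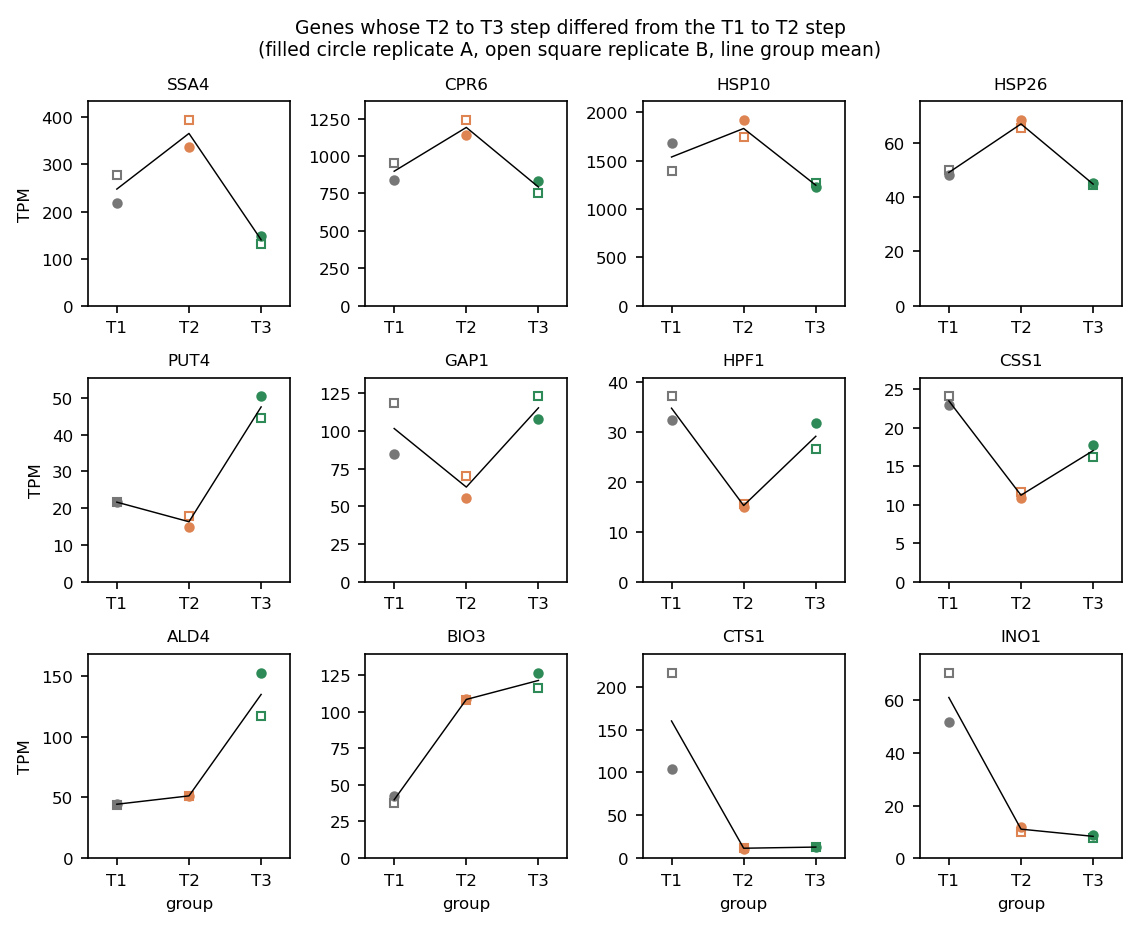
TPM (y axes, each from 0) in each of the 6 libraries for 12 genes whose T2 to T3 step differed from the T1 to T2 step. Filled circles are replicate A, open squares replicate B and lines join group means; SSA4, CPR6, HSP10 and HSP26 are highest in T2, PUT4, GAP1, HPF1 and CSS1 lowest in T2, and CTS1 and INO1 are high in T1 alone.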

How the data were processed

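Poly(A) RNA of 6 W303 libraries was sequenced in paired reads, per the labels' protocols. The deposited values are TPM, made by the authors from reads processed with STAR 2.5.2b, featureCounts and Subread 1.5.2 on build R64, per the submitters' processing notes. Settings, strand and multi-mapping rules are not given in the sources used here, so overlapping and near-identical genes are uncertain. Of 6401 entries 1 had no name and was left out, and 6166 of 6400 names matched the R64 annotation. Each TPM times exonic length, scaled by a factor per library, gave whole fragments (within 0.1) for 99.78 to 99.92% of open reading frames of at most 500 fragments. These gave the depths, which PCR copies may inflate.

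Genes whose mean over the 6 libraries reached 1 TPM were taken to log2(TPM + 1) and fitted by group with limma 3.58.1 in R 4.3.3 (lmFit and contrasts.fit, then eBayes with its prior variance following abundance, with 3 residual and 10.7 prior degrees of freedom). Every test is two-sided. Fold changes include the pseudocount of 1, so those of low genes are understated. With 2 libraries a group an exact permutation test of a single gene cannot go below 0.333. Python 3.11.15, pandas 2.3.3, NumPy 2.4.6 and matplotlib 3.10.9 were used. On simulated data for T3 against T2 (6046 genes, 50 changed per size) 34% of genes changed 1.25-fold, 98% changed 1.5-fold and 100% changed 2-fold or 3-fold were recovered, with 7 unchanged genes called. The changed genes were drawn only from those with a mean of at least 10 TPM, and were far fewer than the genes called in the data. Each value had independent normal noise. Recovery at lower levels, or with errors shared inside a library, was not tested.

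The 51 gene lists, motifs and comparisons were chosen with earlier results of these data known. Of list entries, 26 lay under 1 TPM and 2 had no match. Lists are described by counts and medians, with no set test. Named genes were the 12 largest rises and falls without overlap between T2 and T3 and with at least 10 TPM in a group, from each list the most abundant member and the 2 largest rises and falls, the 6 largest step differences of each sign, and all members of the Start, mitotic cyclin and daughter separation lists. Other genes and the 5 windows printed were chosen after their values were seen. Motifs were searched in 300 bases, from 51 to 350 before the start codon, of the reference strain, which is not W303. The element of Pho4 and Cbf1 (CACGTG) was also searched and was present in 4.0% of all windows and in 4.6% of those of genes that rose. Some searched items are not reported here. Alternatives were other pseudocounts, filters, scalings and trends, voom on the recovered fragments, the replicate block, T2 and T3 alone, and each library left out.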

Additional observations from a re-analysis of the deposited data

Results flagged for a closer look

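The entry without a gene name stood outside every comparison and had signal in all 6 libraries. It lay at 5.44 and 4.76 TPM in T1, 5.75 and 5.60 TPM in T2, and 4.74 and 5.83 TPM in T3, and the T2 and T3 libraries overlapped.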

How the results depend on the processing

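The number of genes that fell from T2 to T3 (368) changed to 683 with values scaled to the median of ratios, 730 with quantiles made equal, 925 with the length trend removed, 203 without the abundance trend and 624 with voom on recovered fragments. With any library left out it ran from 171 to 495 and the number that rose (957) from 465 to 1192, where a group's lone library is assumed to vary like the others. Apart from the T3 letters crossed, given below, the other alternatives kept both counts within 1.5 times. The difference between the steps (46 above, 19 below) gave 9 and 8 with no filter on low values, 79 and 34 at a mean of at least 10 TPM, 12 and 8 under the median of ratios, 5 and 5 with equal quantiles, 29 above with the length trend removed, 9 and 6 without the abundance trend and 39 below with voom. With a library left out it ran from 12 to 173 above and from 6 to 81 below. The causes were not tested, apart from the fewer genes or samples that some settings hold. The main fit did not pair the libraries by the letters A and B. The correlation of the A minus B differences was 0.132 between T1 and T2, -0.058 between T1 and T3 and -0.150 between T2 and T3. Such low values cannot decide whether the libraries were paired, since a shared effect can be small beside the spread. With the replicate block 900 genes rose and 335 fell, and 30 and 13 passed for the step difference. With the T3 letters crossed, an alternative added after seeing the data, 1347 rose and 611 fell. Leaving out overlapping genes, also added, gave 1007 and 377, and 62 above and 20 below. Of 149 called genes that the naming rule took, 97 kept their call in all alternatives run, and none of the 224 named genes reversed a call. The recovered depth leaves counting error small except for genes of a few TPM.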

Other observations

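The most abundant transcripts fell most often. Of 199 genes whose mean reached 1000 TPM, 69 fell and 18 rose, while of 1093 genes at 100 to under 1000 TPM 117 fell and 262 rose. This is not separate from the result on cytosolic ribosomal protein genes. Those genes are abundant, and 25 of the small and 35 of the large subunit fell. The Spearman correlation across genes between mean TPM and log2 change was -0.132 (6046 genes), and that with exonic length was 0.089 (5923 genes); genes of 1 library share depth and scaling. Of 807 genes of at least 2500 bases 13 fell, and of 987 under 500 bases 91 fell. Chromosome medians of the log2 change ran from 0.047 on XIV to 0.125 on III.

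In the remaining gene lists the counts ran both ways, beside 15.8% of all genes tested that rose and 6.09% that fell. The share that rose was near or below that of all genes in several lists. It was 16.7% for hexose transporters, 13.3% for daughter separation, 12.9% for sulfate and methionine and 11.8% for proton pumps. It was 7.14% for fatty acid synthesis, 6.45% for meiosis and 3.45% for the pheromone pathway. Of 20 oxidant defence genes 8 rose and 1 fell. SOD2, the mitochondrial superoxide dismutase gene, went from 290.4 and 305 TPM to 504 and 441 TPM (1.58-fold), and AHP1, an abundant peroxiredoxin gene, from 2467 and 2381 TPM to 2114 and 1689 TPM. The AHP1 call was lost in 4 of 19 alternatives, among them without T2 replicate A (adjusted p = 0.0925) or T3 replicate B (0.149). Of 42 peroxisome and fatty acid oxidation genes 9 rose and 0 fell, but 2 rose without T2 replicate A or T3 replicate A. POT1, the thiolase gene of fatty acid oxidation, went from 6.16 and 6.33 TPM to 15.4 and 13.2 TPM (2.11-fold). Of 18 hexose transporter and sensor genes 3 rose and 0 fell, with HXT4 at 98.9 and 116 TPM in T2 and 189 and 187 TPM in T3 (1.75-fold). Without T2 replicate A or T3 replicate A 1 of the hexose genes rose. Of 9 maltose genes 2 rose, MAL12 and IMA1, and the IMA1 call was lost without T2 replicate A (adjusted p = 0.078) or T3 replicate A (0.151). Of 16 alcohol and aldehyde dehydrogenase genes 4 rose, ADH2, ALD2, ALD3 and ALD4, and 2 rose without T3 replicate A.

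Of 43 genes of glucan and chitin remodelling 12 rose and 2 fell, and 5 rose without T2 replicate A or T3 replicate B. CRH1, a gene that links chitin to glucan, went from 522 and 586 TPM to 868 and 861 TPM (1.56-fold), while UTR2 of the same family went from 433 and 504 TPM to 355 and 370.2 TPM. Of 34 genes of the G2 to M phase 8 rose and 0 fell. ACM1, an inhibitor gene of the anaphase-promoting complex, went from 12.5 and 15.4 TPM to 27.8 and 29.1 TPM (1.98-fold). Of 12 genes of Pho85 and its cyclins 4 rose. Of 15 daughter separation genes 2 rose, ASH1 and SRL1, and of 29 pheromone pathway genes 1 rose, PRM10, and 1 fell, SST2. The PRM10 call was lost in 5 of 18 alternatives, among them without T2 replicate A (adjusted p = 0.0987) or T3 replicate A (0.158). The SST2 call was lost without T2 replicate B (adjusted p = 0.152), T3 replicate A (0.129) or T3 replicate B (0.099).

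Of 30 purine and pyrimidine genes 7 rose and 3 fell (URA1, URA3 and URA7), and 2 rose without T2 replicate A. Of 18 serine, glycine and one-carbon genes 5 rose and 1 fell, CHA1, and 1 rose without T2 replicate A and 3 without T3 replicate A. Of 31 sulfate and methionine genes 4 rose and 5 fell, with 1 rise without T2 replicate A and 2 without T3 replicate A. Of 24 genes of vitamins B1 and B6 8 rose and 1 fell, with 3 and 2 rises without those libraries. Of 32 iron and copper genes 7 rose and 1 fell, CTR1, with 4 rises without T2 replicate B and 3 without T3 replicate A. Of 23 phosphate genes 5 rose and 1 fell, with 1 rise without T2 replicate A or T3 replicate A. Of 13 biotin genes 3 rose, of 17 proton pump genes 2 rose and of 31 meiosis genes 2 rose. Without T2 replicate A or T3 replicate A the biotin count was 1 and the other counts were 0, without T3 replicate B the meiosis count was 0, and without T2 replicate B the proton pump count was 1. Of 14 fatty acid synthesis genes 1 rose, FAS2, and 2 fell, ELO2 and ELO3. The rise was lost without T2 replicate A or T3 replicate A (adjusted p = 0.203 and 0.171). Without T2 replicate B the falls were lost (adjusted p = 0.0993 for ELO2 and 0.162 for ELO3), as they were without T3 replicate A (0.159 and 0.249), and ELO3 was also lost without T2 replicate A (0.0624). Of 22 genes of the telomere-proximal families, which have near-identical copies, 5 rose (2 without T2 replicate A or T3 replicate B), and of 6 aryl-alcohol dehydrogenase genes 1 fell, AAD6.

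Of the called genes, 597 that rose and 186 that fell stand in no list. Among them were NCW2, a cell wall gene that went from 125 to 289 TPM in mean, EGO4 (108 to 250.2 TPM), GUT2, the mitochondrial glycerol-3-phosphate dehydrogenase gene (60.5 to 133 TPM), NRG1, a repressor gene of glucose-repressed genes (49.2 to 97.9 TPM), and CAR1, the arginase gene (82.1 to 159.6 TPM). NCE103, the carbonic anhydrase gene, lay at 379 and 325 TPM in T2 and at 1118 and 534 TPM in T3, so its T3 replicates stood apart. These genes were chosen after their values were seen.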
